A study of Saccharomyces cerevisiae and Kluyveromyces marxianus with 18 samples.

Results

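Anaerobic cultures of Saccharomyces cerevisiae grown without Tween 80 and without ergosterol were compared with anaerobic cultures that received both. The members were chosen by strain, oxygen supply and supplements as the labels give them: 2 unsupplemented libraries and 2 fully supplemented libraries, 4 of the 18 in the series. Each library holds poly(A)-selected RNA from a chemostat of the wild-type strain CEN.PK113-7D, a prototrophic haploid strain widely used for chemostat work. The supplemented group, called TE, had 420 mg/L Tween 80, a detergent that carries oleate esters, and 10 mg/L ergosterol. The unsupplemented group had 0 mg/L of each. Both groups shared 20 g/L glucose, urea-based SM medium at pH 6, pluronic antifoam and a dilution rate of 0.1 per hour, and all 4 titles carry the same run code. The aerobic and oxygen-limited S. cerevisiae groups of the series enter only the estimate of spread. Another anaerobic group, T, with 420 mg/L Tween 80 and 0 mg/L ergosterol, is given beside some genes. It carries another run code, so its supplement and its run cannot be told apart.

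S. cerevisiae makes sterols and unsaturated fatty acids with enzymes that use molecular oxygen. Squalene is epoxidised by Erg1, lanosterol is demethylated by Erg11, the C-4 methyl groups are oxidised by Erg25, double bonds are introduced by Erg3 and Erg5, and acyl chains are desaturated by Ole1. Without oxygen these steps stop, and the yeast depends on imported sterol and fatty acid, which is why ergosterol and Tween 80 are standard additions to anaerobic media. The transcription factors Upc2 and Ecm22 raise sterol genes when sterol is low, and the membrane proteins Mga2 and Spt23 activate OLE1 when the membrane is too saturated. Anaerobic cells also remodel the wall, with mannoproteins of the TIR, DAN and PAU (seripauperin) families.

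The unsupplemented replicates stood apart from each other, and every result below has to be read with that in view. Replicate 1 had 10960290 counts and the TE libraries had 10617911 and 9541663, while replicate 2 had 2849618. In replicate 2, 19.8% of the counts fell on SCEN_L02180 (563517 counts), against 0.0514% in replicate 1 and 0.0184 to 0.0265% in TE. SCEN_L02180 is a gene of 351 bp on chromosome 12 (435495 to 435845) with no S288C identifier. Over 5726 genes, the SD of the log2 difference between replicates was 1.73 in the unsupplemented group, against 0.213 in TE and 0.143 to 0.479 in the other S. cerevisiae groups. A difference of at least 1 log2 unit between the unsupplemented replicates was seen in 3152 genes, or 55.0% of them. Across genes the replicates correlated with Pearson's r of 0.723, and those of TE with 0.992. Genes are not independent replicates.

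Long genes were low in replicate 2. The median difference from the TE mean was -0.41 log2 units for genes of 1801 to 2700 bp, -0.81 for 2701 to 4000 bp and -0.90 above 4000 bp. Replicate 1 had 0.02, -0.05 and -0.16 in the same bins. The part of gene length, depth or SCEN_L02180 in the results was not tested beyond an offset on length and a fit without that gene, whose counts are in the closing section.

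**Figure D1:**
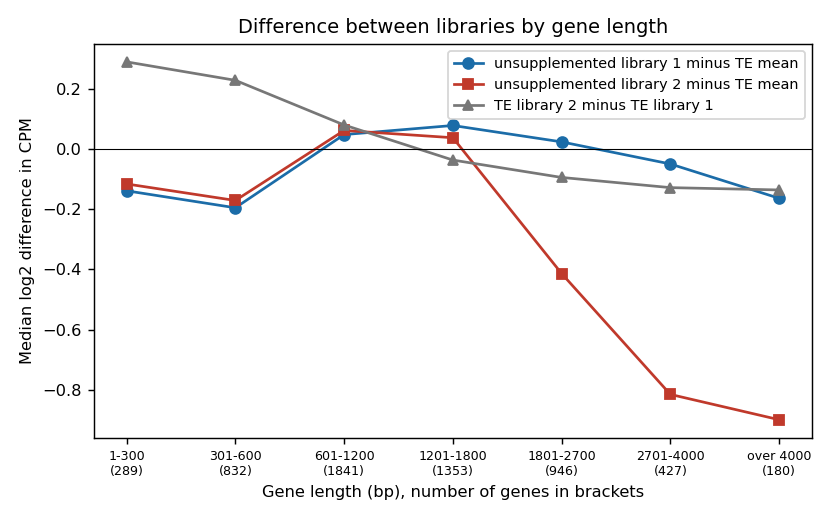
Median log2 difference in scaled CPM (y axis) against gene length in bp (x axis, number of genes in brackets), for each unsupplemented library against the mean of the TE libraries, and between the TE libraries. Replicate 2 falls to -0.81 and -0.90 in the 2 longest bins, while replicate 1 stays at -0.05 and -0.16.

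Levels are given as scaled CPM, read pairs relative to a library size scaled by TMM. The TMM factor was 0.371 in unsupplemented replicate 2 and 1.08 in replicate 1, with 1.15 and 1.07 in TE. Levels in replicate 2 are therefore larger than plain shares of its counts, and SCEN_L02180, with 19.8% of the counts, stands at 532759 CPM. In bulk RNA, fewer cells and less RNA per cell cannot be told apart. Of 5868 genes tested, 509 (8.67%) passed an adjusted p of 0.05 in a quasi-likelihood fit of edgeR over all 10 S. cerevisiae libraries with Benjamini-Hochberg adjustment, 358 higher (6.1%) and 151 lower (2.57%) without supplements. In what follows, values in brackets without a unit are log2 fold changes. Rose and fell below refer to these calls, and counts of calls on a list stand against these shares. In all 509 both unsupplemented libraries lay on the same side of both TE libraries. Without any test, 1641 genes (28%) were above and 1792 (30.5%) below TE in both libraries. The stricter shift of at least 1 log2 unit in both libraries was seen upward in 265 genes (4.52%) and downward in 144 (2.45%).

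How many genes were called depended on single libraries. A fit without 1 of the unsupplemented replicates leaves 1 library in that group, which adds nothing to the estimate of spread. Without replicate 1, that is the library that stands apart. Such fits are used below for fold changes only, and the 509 calls are not checked against them. The count fell to 49 without TE replicate 1, to 42 without TE replicate 2, and to between 178 and 291 without any 1 of the 6 libraries outside the comparison. With group-specific weights (limma voom) 121 genes were called. In the 4 libraries alone, with 2 residual degrees of freedom, edgeR called 0, and 564 genes had an unadjusted p under 0.05. The spread shared by all groups understates that of the unsupplemented group, so levels in each library are given for the genes named as changed.

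**Figure D2:**
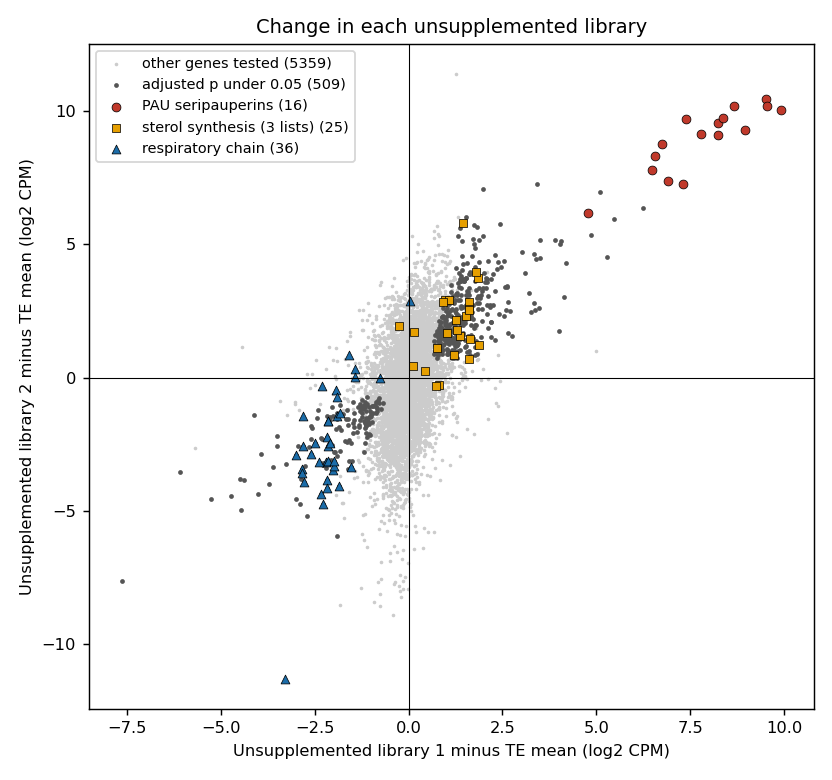
Difference from the mean of the TE libraries in log2 scaled CPM, with unsupplemented replicate 1 on the x axis and replicate 2 on the y axis, for 5868 genes. The 16 PAU genes lie at the upper right in both, the 36 respiratory genes mostly at the lower left, and the cloud of other genes spreads more along the y axis.

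The PAU family held most of the highest fold changes. All 16 PAU genes tested rose. In all 16 both unsupplemented libraries were more than 1 log2 unit above both TE libraries, against 4.52% of all genes at 1 unit or more. Their log2 fold changes ran from 5.64 (PAU4) to 10.35 (PAU16), with a median of 8.84, against -0.03 over all genes tested. The median was 8.01 in replicate 1 and 9.21 in replicate 2, and 7.94 in the fit without replicate 2. The weighted fit also called all 16. Summed over the family, 155 and 130 CPM in the TE libraries stood against 32926 and 78688 CPM in the unsupplemented ones. PAU genes encode small serine-poor proteins related to the TIR mannoproteins, and oxygen and heme keep many of them low. They are near-identical copies, reads that mapped to several places were left out of the counts, and 4 of the 16 entries name 2 S288C genes each, so the split between copies is uncertain.

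PAU16 (SCEN_K00130, chromosome 11, 8350 to 8721) had 0.739 and 0.783 CPM in the TE libraries and 693 and 1325 CPM in the unsupplemented libraries. The groups were far apart, at 10.35 log2 units (SE 0.64, adjusted p 0.000313). PAU3 (chromosome 16, 16755 to 17129) went from 4.52 and 3.42 to 4022 and 4302 CPM, a pair of replicates that differed little, at 10.03 (SE 0.53, adjusted p 0.000170). PAU20 (chromosome 15, 11453 to 11815) went from 2.46 and 2.45 to 1987 and 3089 CPM, at 10.01 (SE 0.63, adjusted p 0.000510). PAU19 and PAU10 also kept close replicates, with 1764 and 1712 CPM for PAU19 and 746 and 1022 CPM for PAU10 against 5.58 to 11.99 CPM in TE. By contrast PAU8 had 3671 CPM in replicate 1 and 18211 in replicate 2, against 22.2 and 21.6 in TE. A gene without an S288C identifier, SCEN_I02200 (chromosome 9, 428119 to 428487), stood among the highest 12 as well, from 2.13 and 2.06 to 704 and 1176 CPM (8.80, SE 0.43, adjusted p 0.000170).

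The T libraries divided the family. Several PAU genes were already high there: PAU3 had 1897 and 1614 CPM, PAU2 2826 and 2632, PAU5 2059 and 2156. In the unsupplemented libraries PAU2 had 5543 and 14151 CPM and PAU5 3797 and 6872. Others were near their TE level or far below the unsupplemented one: PAU16 had 9.66 and 7.66 CPM, PAU4 14.5 and 11.8, PAU10 35.5 and 28.4, and PAU11 69.3 and 49.5. PAU11 had 1572 and 4478 CPM in the unsupplemented libraries. For PAU4, TE had 11.2 and 8.51 CPM and the unsupplemented libraries 276 and 715. T was in another run and was not tested here, so these are values side by side.

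**Figure D3:**
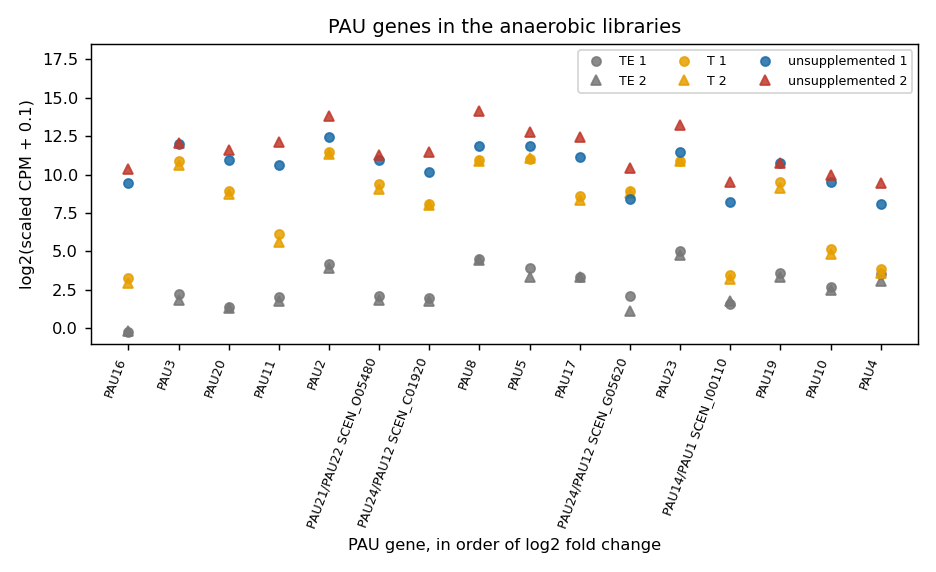
Log2(scaled CPM + 0.1) of the 16 PAU genes in each anaerobic library, ordered by log2 fold change from left to right. Both unsupplemented libraries lie above both TE libraries for every gene, and T lies near the unsupplemented level for PAU3 and PAU5 and near TE for PAU4.

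Other anaerobic wall mannoproteins moved less than the PAU genes. Of 5 TIR and DAN genes tested, 4 rose (median 3.16), and 1 of these is PAU23, also counted above and listed under DAN2, with 2853 and 9746 CPM against 33.0 and 27.6 in TE. DAN4 had 108 and 78.5 CPM in TE and 572 and 994 in the unsupplemented libraries (3.07, SE 0.38, adjusted p 0.00543). TIR1 went from 2428 and 2023 to 6182 and 27546 CPM and TIR4 from 2022 and 1642 to 5641 and 27201. Replicate 1 lay nearer TE than replicate 2 in both, and the log2 fold changes were 1.40 and 1.55 without replicate 2, against 2.92 and 3.16 with it. TIR2 did not pass (3.51, adjusted p 0.0592).

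Sterol synthesis genes were higher, with medians of 1.59 in the oxygen-requiring steps, 1.48 in the mevalonate route and 1.56 in the other steps. In the 3 lists of the route, 12 of 25 genes rose and 0 fell, with a median of 1.56. Both unsupplemented libraries lay above both TE libraries in 22 of the 25, against 28% of all genes. The medians of the oxygen-requiring, mevalonate and other steps were 1.26, 1.22 and 1.28 in replicate 1. In replicate 2 they were 1.45, 1.71 and 1.95. Among the 5 oxygen-requiring steps, ERG25, ERG1 and ERG11 rose. ERG25 (C-4 methyl sterol oxidase, SCEN_G03340, chromosome 7, 634122 to 635051) had 1047 and 891 CPM in TE and 3016 and 2634 without supplements, at 1.54 (SE 0.31, adjusted p 0.0285) or 2.92-fold. ERG1 (squalene epoxidase) had 1132 and 1027 CPM against 2580 and 4819, and ERG11 (lanosterol demethylase) had 1157 and 1039 against 4039 and 2555. The replicates of ERG1 and ERG11 differed in opposite senses. ERG3, the C-5 desaturase, had 929 and 809 CPM against 1826 and 6488 and did not pass (2.26, adjusted p 0.0632). ERG5, the C-22 desaturase, had 269 and 241 against 348 and 303 (0.35, adjusted p 0.433). With group weights 0 of these 5 passed.

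In the mevalonate route, which makes the isoprene units, 5 of 9 rose, with a median of 1.48. ERG10 (acetoacetyl-CoA thiolase) had 236 and 219 CPM in TE and 798 and 3505 without supplements, at 3.24 (SE 0.62, adjusted p 0.0229). MVD1, the mevalonate decarboxylase, had 156 and 150 against 550 and 2027, at 3.07 (adjusted p 0.0221), and ERG8, phosphomevalonate kinase, had 73.2 and 73.8 against 192 and 219, at 1.48 (adjusted p 0.00858). ERG8 had the closer replicates. HMG1, HMG2, ERG12 and IDI1 did not pass. Of 11 other sterol genes 4 rose. ERG9, squalene synthase, had 233 and 226 CPM in TE and 559 and 796 without supplements (1.56). The reductases ERG24 and ERG27 had 117 and 107 against 342 and 651 CPM (2.14) and 183 and 190 against 567 and 1107 (2.16). ERG28, a scaffold of the C-4 demethylation complex, had 689 and 784 against 2123 and 3603 (1.96). ERG2, the C-8 sterol isomerase, had 682 and 679 CPM in TE, 1852 in replicate 1 and 37479 in replicate 2, and did not pass (4.85, SE 1.23, adjusted p 0.0519).

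Of 7 genes of sterol import and its regulators 3 rose and 1 fell (median 0.96), and with group weights 0 of the 7 passed. UPC2 (SCEN_D04550, chromosome 4, 869374 to 872115), the sterol-sensing activator, had 111 and 96.7 CPM in TE and 269 and 284 without supplements, at 1.41 (SE 0.25, adjusted p 0.0181), with replicates closer to each other than to TE. Its paralog ECM22 went from 108 and 90.0 to 166 and 226 (0.98, adjusted p 0.0492), a call that ended under RLE and upper quartile scaling. AUS1, an ABC transporter that imports sterol, went from 679 and 501 to 1770 and 5055 CPM, at 2.53 (SE 0.50, adjusted p 0.0251) or 5.78-fold. PDR11, its close relative, had 185 and 137 against 191 and 442 (0.96, adjusted p 0.141). SUT1, a transcription factor of sterol uptake, fell from 140 and 114 to 61.2 and 45.4 CPM (-1.24, adjusted p 0.0228). In the T libraries, UPC2 had 391 CPM in each and AUS1 had 2284 and 2209. Among 10 genes of sterol ester and triacylglycerol storage 1 rose and 0 fell, with a median of 0.21 that turned to -0.41 without replicate 1. That gene was ARE1, a sterol acyltransferase, which rose from 130 and 115 to 437 and 6226 CPM (4.76, adjusted p 0.0388), and its fold change was 1.76 without replicate 2.

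The list of the desaturase OLE1, its regulators and fatty acid uptake held calls in both directions. OLE1 (delta-9 desaturase, SCEN_G02160, chromosome 7, 416540 to 418072) had 1876 and 2029 CPM in TE and 11292 and 9545 in the unsupplemented libraries, at 2.42 (SE 0.49, adjusted p 0.0281) or 5.34-fold. The unsupplemented values were close to each other and neither approached TE. In its list 2 of 9 rose and 1 fell, and with group weights 0 of the 9 passed, OLE1 included. The T libraries, with Tween 80 and no ergosterol, had 1955 and 2063 CPM of OLE1, close to the TE values. T was in another run, and the part of each supplement was not tested. The OLE1 activators MGA2 (233 and 193 against 475 and 129 CPM) and SPT23 (62.3 and 56.9 against 42.3 and 37.8) did not pass. ACB1, the acyl-CoA binding protein, rose (2.33, adjusted p 0.0314), from 412 and 511 to 1198 and 3437 CPM. FAA3, an acyl-CoA synthetase, fell from 240 and 209 to 108 and 52.0 CPM (-1.47, adjusted p 0.0439), and T had 398 CPM in each library.

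In fatty acid synthesis and elongation 3 of 9 rose. FAS2, the alpha subunit of fatty acid synthase, had 755 and 690 CPM in TE, 2446 in replicate 1 and 20910 in replicate 2 (4.01, adjusted p 0.0390), and 1.68 without replicate 2. ELO2 and PHS1, of the very long chain cycle, rose, from 189 and 164 to 329 and 522 CPM (1.27) and from 148 and 142 to 288.3 and 599 CPM (1.61). With group weights 1 of the 9 passed. Among phospholipid genes 3 of 23 rose, against 6.1% of all genes, and with group weights 0 of the 23 passed. EPT1, which adds phosphoethanolamine to diacylglycerol, had 81.5 and 67.1 CPM in TE and 215 and 628 without supplements (2.50). INO2, an activator of phospholipid genes, had 29.8 and 29.5 against 54.4 and 107 (1.42), and SLC1, an acyltransferase, 225 and 219 against 479 and 655 (1.35). Of 16 sphingolipid genes 2 rose, also against 6.1%. ISC1, a phospholipase that releases ceramide, had 71.7 and 63.3 against 218 and 1586 CPM (3.74, or 1.62 without replicate 2), and IPT1, the final step of inositol sphingolipids, 110 and 105 against 190 and 285 (1.14).

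Genes of the unfolded protein response and of folding in the endoplasmic reticulum were higher in 8 of 15, with 0 lower and a median of 1.24. KAR2, the BiP chaperone of the endoplasmic reticulum (SCEN_J01860, chromosome 10, 364573 to 366621), had 580 and 528 CPM in TE and 1806 and 2535 without supplements, at 1.97 (SE 0.29, adjusted p 0.00932). EUG1, a disulfide isomerase, had 95.1 and 93.9 against 432 and 398 CPM, at 2.14 (SE 0.33, adjusted p 0.0102). Replicates of KAR2 and EUG1 agreed to within 1 log2 unit, and both were above TE. SCJ1, a DnaJ co-chaperone, rose from 73.1 and 65.4 to 197 and 288.4 CPM (1.81). The ligase genes that clear misfolded proteins rose as well, HRD1 from 60.025 and 54.1 to 139 and 133 (1.26) and HRD3 from 42.0 and 36.7 to 67.8 and 113 (1.18). MPD1, another isomerase, went from 69.3 and 70.8 to 126 and 207 (1.24). HAC1, the transcription factor of the response, had 167 and 147 CPM in TE, 617 in replicate 1 and 20984 in replicate 2 (6.10, SE 1.42, adjusted p 0.0416), and 1.90 without replicate 2. HAC1 mRNA is regulated by splicing, which gene counts do not show. PDI1 had 561 and 534 against 1705 and 8523 (3.22, adjusted p 0.0333). In the fit without replicate 2 the median of the list was 1.1. With group weights, 2 of the 15 were called.

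Cell wall integrity and remodelling genes rose in 7 of 22 (median 1.19), and 0 fell. PST1, a GPI-anchored wall protein induced by wall damage, had 142 and 135 CPM in TE and 849 and 1478 without supplements, at 3.07 (SE 0.41, adjusted p 0.00684) or 8.39-fold. PIR3 and CIS3, of the Pir family, rose from 49.7 and 51.5 to 176 and 496 CPM (2.72) and from 684 and 664 to 1784 and 5794 (2.49). The yapsin proteases were far apart between replicates. YPS1 had 83.9 and 74.9 CPM in TE and 209 and 820 without supplements (2.69, or 1.32 without replicate 2). YPS3 had 71.5 and 73.7 against 187 and 3559 CPM (4.69, or 1.29 without replicate 2), and RLE and upper quartile scaling end its call. The glucan synthase entry GSC2/FKS1 (SCEN_G02970) had 248 and 189 against 520 and 1897 CPM (2.46, or 1.17 without replicate 2), and SLT2, the kinase of the pathway, 123 and 119 against 217 and 245 (0.93). With group weights 5 of the 22 passed.

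Genes of the respiratory chain and the ATP synthase were lower as a group. Of 36 tested, 26 fell and 0 rose, with a median of -2.46, -2.16 in replicate 1 and -2.72 in replicate 2. Background calls downward were 2.57%. In 28 both unsupplemented libraries were at least 1 log2 unit below both TE libraries, against 2.45% of all genes. In the fit without replicate 2 the median was -2.24. With group weights only 4 passed, all lower.

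Grouped by complex after the values were seen, all 13 genes of the ATP synthase fell, 7 of 8 of complex III and 6 of 8 of complex IV, while 0 of 4 of succinate dehydrogenase passed in edgeR, 0 of them at an unadjusted p under 0.05. The genes of the outer NADH dehydrogenases and of the internal one, 3 in all, did not pass either, with 1 higher and 1 lower at an unadjusted p under 0.05. Summed over the 4 succinate dehydrogenase genes, TE had 1387.5 and 1444.5 CPM, against 419.5 in replicate 1 and 1542.9 in replicate 2. The 3 NADH dehydrogenase genes summed to 230.2 and 212.2 CPM, against 88.9 and 241.1. Both sums were low in replicate 1 alone, so the lack of calls does not show that these genes stayed at the TE level. QCR7, of complex III (SCEN_D07700, chromosome 4, 1475340 to 1475723), had 572 and 714 CPM in TE and 90.1 and 58.6 without supplements, at -3.10 (SE 0.39, adjusted p 0.00585). RIP1, the Rieske protein, had 190 and 205 against 27.95 and 33.1 CPM, at -2.70 (SE 0.32, adjusted p 0.00394). COX4, of complex IV, had 230 and 270 against 30.9 and 33.1 CPM, at -2.97 (SE 0.37, adjusted p 0.00534). In all 3 the replicates were alike and the TE libraries several-fold above. ATP20, of the ATP synthase, had 190 and 242 against 31.0 and 14.2 CPM (-3.19, adjusted p 0.00899). The catalytic subunit gene ATP1 had 558 and 526 against 134 and 48.2 CPM (-2.55, adjusted p 0.0183), and in T it had 592 and 622. The list as a whole was lower in T than in TE. Summed over all 36 genes, T had 7735.6 and 8008.8 CPM and TE had 13134.2 and 15157.5. The unsupplemented libraries had 3233.2 and 3932.9. T was in another run, and these sums were not tested.

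COX26, a small subunit bound to complex IV, was the lowest of all named genes. It had 201 and 244 CPM in the TE libraries and 0.932 and 0.945 in the unsupplemented ones, from 11 counts in replicate 1 and 1 in replicate 2. The TE mean was 239 times the replicate 1 level (95% exact Poisson interval 134 to 479) and 236 times the replicate 2 level (42.3 to 9304), intervals of counting error only. The fit gave -7.88 log2 units (SE 0.39, adjusted p 0.000170). With group weights (limma voom) COX26 did not pass (adjusted p 0.0846). T had 5.50 and 7.99 CPM. COX26 is in none of the lists. INH1, the inhibitor of the ATP synthase, had 190 and 244 against 16.3 and 13.2 CPM (-3.85, SE 0.33, adjusted p 0.000949), and RPM2, a subunit of mitochondrial RNase P, had 262 and 236 against 31.2 and 10.4 (-3.48). With group weights INH1 and RPM2 did not pass (adjusted p 0.0628 and 0.0937). PET9, the main ADP/ATP carrier, fell to 56.2 and 95.5 CPM from 329 and 355 (-2.19, adjusted p 0.0112).

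Elsewhere in the mitochondrion, 3 of 11 TCA cycle genes fell, against 2.57% of all genes. MDH1, malate dehydrogenase, had 346 and 343 CPM in TE and 114 and 38.8 without supplements (-2.15), CIT1, citrate synthase, 767 and 745 against 263 and 137 (-1.91), and KGD1, of the 2-oxoglutarate dehydrogenase, 303 and 267 against 125 and 137 (-1.12). The length offset ends the call of KGD1, and with group weights 0 of the 11 passed. Of 56 mitochondrial ribosomal proteins 4 fell, against 2.57% of all genes, and 0 rose. Their median was -0.88, with -0.50 in replicate 1 and -1.40 in replicate 2. COX5B, the low-oxygen form of a complex IV subunit, fell from 200 and 233 to 98.6 and 89.8 CPM (-1.20, adjusted p 0.0193). ANB1, the low-oxygen form of eIF5A, did not pass, with 646 and 680 CPM in TE and 836 and 2320 without supplements. In heme metabolism, HEM13, the oxygen-requiring coproporphyrinogen oxidase, rose from 1299 and 1231 to 4902 and 12116 CPM (2.75, adjusted p 0.0238). In that list 3 of 9 rose. HEM15, ferrochelatase, had 121 and 120 against 300 and 1422 CPM (2.83, or 1.23 without replicate 2). HMX1, heme oxygenase, had 3.78 and 4.01 CPM in TE and 18.6 and 17.0 without supplements (2.21).

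Sugar transport genes moved in both directions. HXT7 (SCEN_D05910, chromosome 4, 1133609 to 1135321), a high-affinity hexose transporter, had 5532 and 5742 CPM in TE and 82.9 and 482 in the unsupplemented libraries, at -4.33 (SE 0.81, adjusted p 0.0214), or -6.16 without replicate 2. T had 5850 and 6004 CPM, and the aerobic libraries, at 7.5 g/L glucose, 6211 and 6350. HXT3/HXT1 (SCEN_D05930, chromosome 4, 1142350 to 1144053), an entry of low-affinity transporters, rose from 80.6 and 87.4 to 3738 and 5147 CPM, at 5.72 (SE 0.32, adjusted p 0.000219) or 52.9-fold, against 55.6 and 56.5 in T. An entry of HXT6/HXT4 on chromosome 8 (SCEN_H01560) rose from 12.6 and 12.8 to 974 and 1049 CPM (6.32), and HXT2, of intermediate affinity, from 59.4 and 63.2 to 640 and 1326. The second HXT6/HXT4 entry, on chromosome 4 (SCEN_D05920), had 6050 and 5974 against 117 and 962 CPM and did not pass (-3.48, adjusted p 0.0507). Going by the chromosome in the S288C names, SCEN_D05920 matches YDR343C (HXT6) and SCEN_H01560 matches YHR092C (HXT4). By the same rule SCEN_D05930 matches YDR345C (HXT3). These matches were not tested. SNF3, the sensor of low glucose, fell from 61.2 and 54.0 to 26.1 and 16.1 CPM (-1.39). Of 16 in the list 3 rose and 2 fell, and reads that map to several of these near-identical genes were left out of the counts.

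Maltose genes and HXK1 were low. The entries MAL32/MAL12 of chromosomes 7 (SCEN_G05600) and 3 (SCEN_C01900), maltases, had 2616 and 2325 CPM and 1626 and 1440 CPM in TE, against 64.5 and 105 and 68.2 and 110 without supplements (-4.88 and -4.12). MAL11, a maltose transporter, had 994 and 853 against 43.8 and 64.3 CPM (-4.11, SE 0.33, adjusted p 0.000729). HXK1, a hexokinase, fell from 7787 and 7210 to 665 and 1264 CPM (-2.96, SE 0.48, adjusted p 0.0125), while T had 7239 and 8223. The aerobic libraries had 1650 and 1869 CPM of HXK1, and 116 and 125 CPM of the maltase entry SCEN_G05600. SUL1, the high-affinity sulfate permease, had 686 and 658 against 55.3 and 66.2 CPM (-3.47, SE 0.26, adjusted p 0.000474) with close replicates. Other genes among the 12 lowest were SCEN_B04120 (45.7 and 44.1 against 1.53 and 1.89 CPM) and SCEN_B04110 (36.8 and 34.0 against 1.44 and 0.945), with no S288C identifier, and YFL012W (20.1 and 26.6 against 1.27 and 0.945). SCEN_E00200 was also among them, with 10.3 and 10.4 CPM in TE against 0.424 and 3.78, from 5 and 4 counts. Its fold change of -3.55 became -1.46 without replicate 1. With group weights it did not pass (adjusted p 0.608).

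Glycolysis showed where the replicates parted. Of 20 genes only HXK1 was called, and the median was -0.27 in replicate 1 and 1.99 in replicate 2. TDH3, glyceraldehyde-3-phosphate dehydrogenase, had 6850 and 6770 CPM in TE, 4786 in replicate 1 and 55837 in replicate 2. In 19 of 20 genes replicate 2 was above both TE libraries and in 14 of 20 replicate 1 was below both. The genes farthest apart between the replicates were SCEN_L02180 (477 and 532759 CPM), SCEN_I01990 (13.7 and 663), ILV6, of branched amino acid synthesis (258 and 9644), HAC1 and SPC25, of the kinetochore (114 and 3483). At the other end JNM1, PRP3, COX7, SMU2 and BLI1 had 0 counts in replicate 2, where 3 counts are 2.84 CPM, and between 41.0 CPM (JNM1) and 66.0 CPM (BLI1) in replicate 1.

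**Figure D4:**
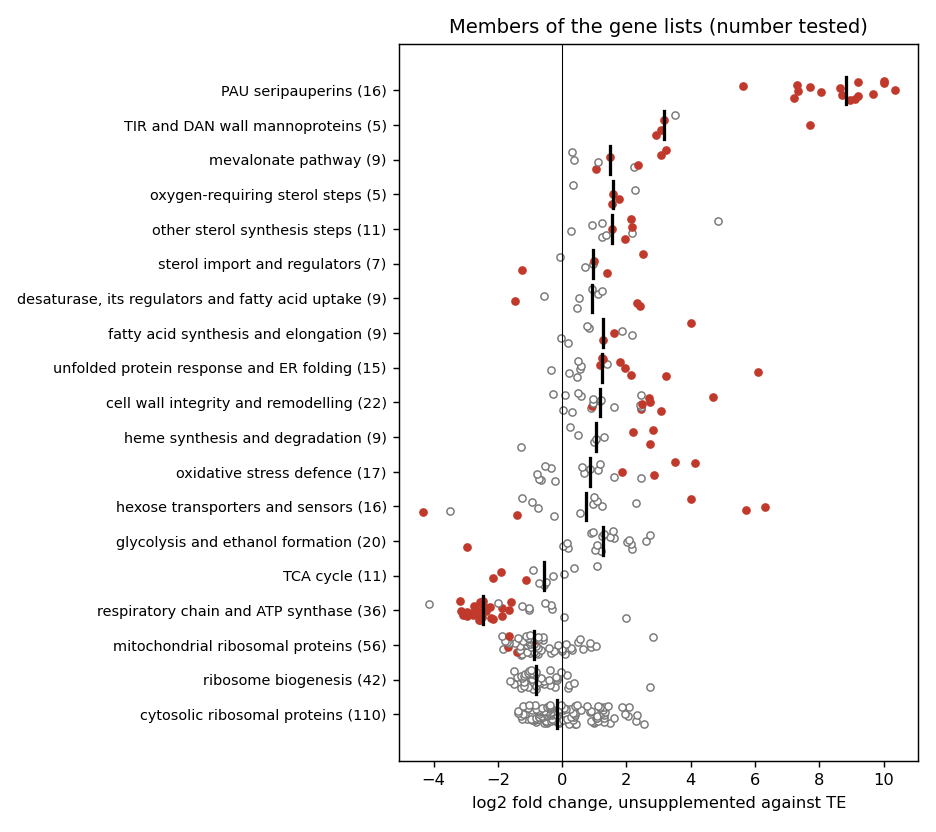
Log2 fold change (x axis) of the tested members of 19 gene lists, unsupplemented against TE, each point 1 gene, red where the adjusted p was under 0.05, and black bars at list medians. The PAU list lies at 5.64 to 10.35, the sterol lists above 0, and the median of the respiratory list is -2.46, with members up to 1.98, while cytosolic ribosomal proteins centre at -0.16.

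Calls on the stress lists were all upward. Of 17 oxidative stress genes 4 rose, of 14 general stress genes 3 rose, and of 19 heat shock genes 2 rose, against 6.1% of all genes, and 0 of them fell. The medians were 0.87, 1.3005 and 0.68. Without replicate 2 they were -0.08, 0.23 and 0.33. The peroxiredoxin AHP1 had 63.1 and 72.9 CPM in TE and 687 and 1696 without supplements (4.13, SE 0.57, adjusted p 0.00753). TSA2, another, went from 43.4 and 50.1 to 230 and 448 (2.85, SE 0.36, adjusted p 0.00543). TSA1 had 550 and 609 against 1689 and 11464 CPM (3.50, or 1.47 without replicate 2), and TRX2, a thioredoxin, 325 and 439 against 917 and 1850 (1.86). SNZ1 and SNO1, of vitamin B6 synthesis, rose from 19.2 and 22.6 to 171 and 545 CPM (4.09) and from 9.36 and 10.4 to 35.2 and 79.4 (2.49). YGP1, a wall glycoprotein of starved cells, had 43.6 and 39.4 against 200 and 620 CPM (3.30), and HSP26, a small heat shock protein, 89.2 and 102 against 437 and 1233 (3.13). Outside the stress lists, IME2, a meiotic kinase, had 14.1 and 13.5 CPM in TE and 233 and 489 without supplements (4.70, SE 0.41, adjusted p 0.000952). It was the only 1 of 16 meiosis and sporulation genes that rose, and 1 fell, against 6.1% and 2.57% of all genes. The median of that list was 0.42. 

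Of 19 iron genes 3 rose and 1 fell, against 6.1% and 2.57% of all genes, and with group weights 0 passed. The iron uptake genes SIT1 and FTR1 had 12.6 and 12.1 against 29.1 and 56.7 CPM (1.75) and 81.3 and 76.0 against 228 and 1047 (3.01, or 1.46 without replicate 2). TIS11, which promotes decay of iron-related mRNAs, had 9.69 and 9.79 against 29.1 and 94.5 (2.60), and CCC1, the vacuolar iron importer, fell from 172 and 190 to 101 and 81.3 (-0.98). Among 12 transporters and regulators of multidrug resistance 4 rose and 1 fell, and with group weights 0 passed. PDR5, a drug pump, had 120 and 102 against 215 and 328 CPM (1.29), its activator PDR3 43.7 and 38.8 against 69.2 and 80.4 (0.85). TPO1, a polyamine exporter, had 80.6 and 66.5 against 131 and 165 (1.00), and RSB1, linked to sphingoid base export, 20.2 and 18.8 against 53.8 and 58.6 (1.52). PDR12, a weak acid pump, fell from 45.0 and 73.3 to 25.2 and 28.4 (-1.15), a call that ended under RLE scaling and the length offset.

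Growth genes were not called. None of 110 cytosolic ribosomal protein genes (median -0.16) and none of 42 ribosome biogenesis genes (median -0.82, with -0.35 in replicate 1 and -1.96 in replicate 2) passed in edgeR, while 11 higher and 10 lower of the first list and 1 higher of the second had an unadjusted p under 0.05. DESeq2 called 9 higher and 6 lower of the first and 1 of the second, and limma voom 0 of each. Without any test, 33 of the 42 ribosome biogenesis genes lay below TE in both libraries and 2 above. Of the 110 ribosomal protein genes 43 lay below and 8 above. The shares of all genes were 30.5% below and 28% above. Of 10 histone genes 1 fell, HTA2, from 1208 and 1609 to 456 and 128 CPM (-2.26, adjusted p 0.0471). Of the 10, 8 lay below TE in both libraries, against 30.5% of all genes. Of 8 a-specific and pheromone response genes 3 rose, STE2 among them, and 1 fell (-2.29). The shares of all genes were 6.1% and 2.57%, and with group weights 0 of the 8 passed. STE2, the a-type pheromone receptor, had 672 and 652 CPM in TE and 1885 and 1755 without supplements, at 1.46 (SE 0.24, adjusted p 0.0136). STE3, the alpha-type receptor, stayed between 34.9 and 43.4 CPM in all 4 libraries.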

How the data were processed

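The deposited whole-number counts per gene were made by the authors with featureCounts, and the submitters' processing notes name Bowtie 1.2.1.1, SAMtools 1.3.1, featureCounts 1.6.0 and edgeR 3.28.1. Per the file headers, read pairs were counted on gene features of a CEN.PK113-7D annotation with no strand option, so a gene and its antisense partner cannot be told apart (155 genes overlap another), and reads mapping to several places or genes were left out. The series' design text calls the replicates biological.

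Levels, tests and lists were computed here from those counts. Genes passing filterByExpr on the groups (5868 of 6171) were scaled by TMM and fitted with edgeR 4.0.16 in R 4.3.3 (quasi-likelihood test, all 10 S. cerevisiae libraries, 1 term per group), with Benjamini-Hochberg adjustment over all genes and a threshold of 0.05. Differences in single libraries are on log2 CPM with a prior count of 2. Named genes were the 12 highest and 12 lowest called genes of at least 10 CPM, members of 46 gene lists, and the 5 genes farthest apart each way between the unsupplemented replicates. The members and lists were chosen with earlier results of these data known. S288C identifiers come from a table deposited by the authors and symbols from a RefSeq gene table, used for names only. A gene without an identifier may still have an S288C counterpart. Intervals are exact Poisson at 95% and cover counting error only. Alternatives were other scalings, no filter, DESeq2 1.42.0, limma voom 3.58.1, the 4 libraries alone, each library left out, and, chosen after seeing the data, a gene-length offset and a fit without SCEN_L02180. No promoter search was run.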

Additional observations from a re-analysis of the deposited data

How the results depend on the processing

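The count of 509 genes changed was 1666 with DESeq2, 121 with limma voom and group weights, 105 against a log2 fold change of 1, and 0 in the 4 libraries alone. Leaving out 1 library at a time gave 42 to 4326. It was 511 with RLE, 466 with upper quartile, 482 without the filter, 498 with the length offset and 510 without SCEN_L02180. The 409 genes shifted in both libraries became 1138 at 0.5 log2 units and 109 at 2. The labels do not say that equal title stems pair libraries, and same-stem deviations correlated at -0.0925 across genes, so the stem as a replicate block is given only here: 56 genes were called, 55 of them also among the 509. SCEN_I01990 (0.14) reversed to -0.30 under upper quartile scaling, -2.93 with voom, -1.65 with the replicate block and -4.54 without unsupplemented replicate 2, against 1.12 without replicate 1, and MGA2, ERG12 and IDI1 reversed to -0.73, -0.31 and -0.33 without replicate 1, against 1.08, 0.73 and 0.65 without replicate 2. TDH3 and the GSC2/FKS1 entry SCEN_L03980 reversed to -0.59 and -0.32 without replicate 2, against 3.03 and 1.11 without replicate 1. The causes were not tested. Among genes named in the report, the length offset ended the calls of ECM22, ERG11, ERG20, HRD3, HTA2, KGD1, PDR12, SLT2, TIR1, TIR4 and YPS3, RLE those of ECM22, PDR12, TIR1 and YPS3, and upper quartile those of ECM22, ERG11, ERG20, FAA3, HRD1, HRD3, HTA2, PDR3, SLT2, TPO1 and YPS3. With the offset 441 of the 509 calls remained. Without unsupplemented replicate 2 the medians of 10 lists changed sign, among them glycolysis (1.27 to -0.35), hexose transporters (0.75 to -0.07), oxidative stress defence (0.87 to -0.08), glycerol (0.47 to -0.14), gluconeogenesis (0.82 to -0.03), nitrogen sources (0.56 to -0.10) and flocculins (1.84 to -0.28). The depth of replicate 2 limits low genes, since 3 counts are 2.84 CPM there and 0.254 in replicate 1.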
